A study of Drosophila melanogaster with 2 samples.

Results

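Nuclear tRNA genes were examined in maps of Araucan binding in whole Drosophila melanogaster embryos. The members were all genes of the Ensembl annotation with the biotype tRNA on the assembled chromosome arms, a choice that used no measured value. They number 290 of the 18164 annotated genes on the arms, transposable elements left out. The study deposited ChIP-seq peak lists for 1 group of 2 biological replicates. The embryos were 0 to 24 h old and carried a transgene for Araucan joined to enhanced green fluorescent protein (labelled ara-eGFP, strain ara-GFP), and anti-GFP antibody was used to pull the fusion down from chromatin sonicated to 200 to 800 bp. Every cell type of the embryo is mixed in such a sample, and the labels give neither the driving promoter nor a group without the transgene. The conservative peak list, which keeps peaks whose rank repeats between the replicates, held 4706 peaks on the arms. Read counts are not part of these lists, and sequencing depth is therefore unknown.

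tRNA genes are short and are transcribed by RNA polymerase III. Their promoter lies inside the gene, as an A box and a B box that the factor TFIIIC binds, and TFIIIC in turn places TFIIIB just upstream of the start. In flies many tRNA genes are identical copies, spread singly, in clusters and inside introns of protein-coding genes. Araucan belongs to the Iroquois complex of homeodomain transcription factors, a group known for patterning roles at genes transcribed by RNA polymerase II.

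Few tRNA genes lay beside an Araucan peak. A summit, the position of highest signal in a conservative peak, was within 500 bp of 18 of the 290 tRNA genes, or 6.21% (exact 95% interval 3.72 to 9.63%). The same rule called 19.4% of all annotated genes and 22.4% of protein-coding genes. In total 19 distinct summits lay near tRNA genes, and none of them was inside one. The median length of a tRNA gene was 73 bp, so these genes cover little DNA and few summits would lie inside them by position alone. Intervals cover counting error only, and neighbouring tRNA genes can share a summit, so genes are not independent observations.

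The sequences of 5 tRNA genes with a nearby summit are shown first, because they carry the internal promoter and because some of them have identical copies without a summit. They come from the RefSeq copy of the release 6 assembly, the build named dm6 in the labels, and are written 5′ to 3′ on the gene's own strand. Capitals mark a match to TTCNANNC, the core of the B box as searched here.
tRNA:Tyr-GTA-1-8 (3R:8669081-8669174, minus strand, intron of p): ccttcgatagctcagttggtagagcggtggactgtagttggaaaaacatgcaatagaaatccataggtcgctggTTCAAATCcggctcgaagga
tRNA:Gln-TTG-2-1 (X:3427452-3427523, minus strand, intron of CG12535): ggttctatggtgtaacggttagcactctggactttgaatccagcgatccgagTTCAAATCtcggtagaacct
tRNA:Val-CAC-2-5 (3R:19672277-19672349, minus strand, intron of Naam): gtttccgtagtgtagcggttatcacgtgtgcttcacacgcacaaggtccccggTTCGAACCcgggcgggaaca
tRNA:Leu-CAA-2-2 (3L:13214109-13214233, plus strand, intergenic): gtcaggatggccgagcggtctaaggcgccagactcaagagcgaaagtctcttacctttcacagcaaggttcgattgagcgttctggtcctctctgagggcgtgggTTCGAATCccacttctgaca
tRNA:Ala-AGC-2-8 (3R:17646683-17646755, minus strand, intergenic): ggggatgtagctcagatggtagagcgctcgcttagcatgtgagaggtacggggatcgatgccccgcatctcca
In the Tyr, Gln, Val and Leu genes the match started at base 75, 53, 54 and 106. The Ala gene held no match and so has no capitals. Over all members, 271 of 290 tRNA genes (93.4%) held the core on their sense strand.

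All 19 summits lay in DNA outside the tRNA genes themselves. Windows of 50 bp to each side of the highest summits near tRNA:Tyr-GTA-1-8, tRNA:Gln-TTG-2-1 and tRNA:Val-CAC-2-5 overlapped no annotated exon and each held a searched motif. Those near tRNA:Phe-GAA-1-2 and tRNA:Leu-CAA-2-2 also overlapped no annotated exon but held no searched motif, and are not printed. The printed windows are given on the plus strand of dm6, with the match in capitals.
Summit near tRNA:Tyr-GTA-1-8 (3R:8669343-8669443), ACANNTGT in capitals: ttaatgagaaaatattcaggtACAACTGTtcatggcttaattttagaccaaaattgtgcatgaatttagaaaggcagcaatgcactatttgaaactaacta
Summit near tRNA:Gln-TTG-2-1 (X:3427692-3427792), TTCNANNC on the minus strand in capitals: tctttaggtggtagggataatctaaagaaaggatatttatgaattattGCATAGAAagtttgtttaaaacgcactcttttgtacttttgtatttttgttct
Summit near tRNA:Val-CAC-2-5 (3R:19671798-19671898), TTCNANNC on the minus strand in capitals: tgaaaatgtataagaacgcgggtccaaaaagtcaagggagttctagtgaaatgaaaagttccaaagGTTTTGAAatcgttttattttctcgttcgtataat
Of the 19 windows, 6 held TTCNANNC on either strand, against 17.5% of the windows of all 4706 conservative summits. A tRNA gene reached into 3 of the 19 windows, and in 1 window the match lay inside the gene. ACANNTGT, a palindrome searched as an Iroquois site, was in 1 of 19 windows and in 4.80% of all. TAACA was in 2 of 19 and in 24.5% of all, and TATCGATA was in 0 of 19 and 0.935% of all. The median GC content was 38.6% in the windows near tRNA genes and 34.7% in all summit windows, while that of the tRNA genes themselves was 58.5%. A match describes these letters alone, and the B box core is short enough to occur often.

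Compared over windows of equal length, tRNA genes still had fewer summits than protein-coding genes. A conservative summit was within 500 bp of the annotated 5′ end of 15 tRNA genes, or 5.17% (2.92 to 8.39%). The same measure gave 11.3% of all genes and 13.1% of protein-coding genes. Other short RNA genes had shares close to that of the tRNA genes, with 4.23% of miRNA genes and 4.46% of snoRNA genes. For snRNA genes it was 6 of 32, or 18.8% (7.21 to 36.4%), and for rRNA genes 0 of 99. Ranked peaks of any height were also rare at rRNA genes, near the 5′ end of 4.04% of them against 78.5% of all genes. The 0 therefore says little about rRNA genes. Of all positions on the arms, 3.32% lay within 500 bp of a conservative summit.

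**Figure D1:**
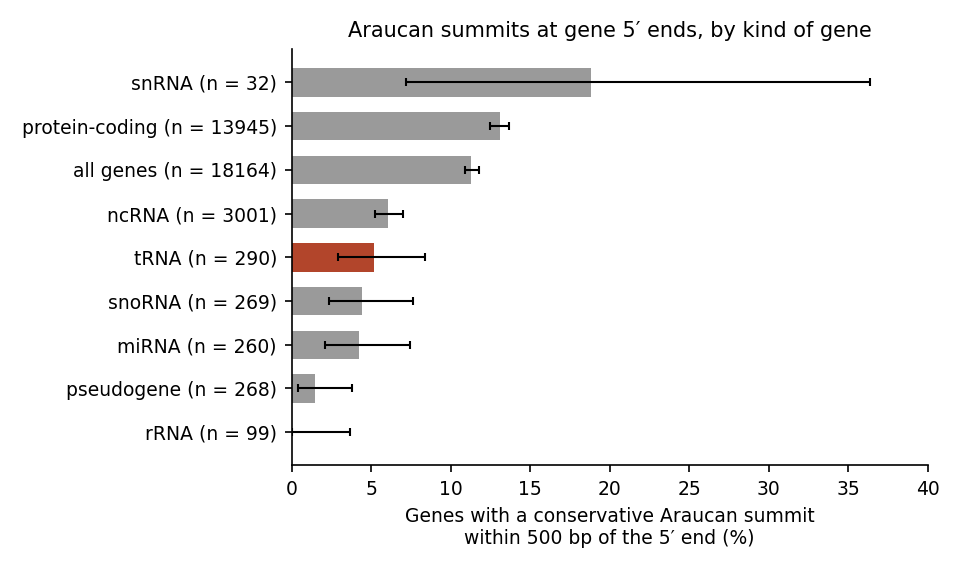
Percentage of genes of each annotated kind with a conservative summit within 500 bp of the 5′ end, with exact 95% intervals for counting error and the number of genes in brackets. The tRNA bar (5.17%) lies near those of snoRNA and miRNA genes and below that of protein-coding genes (13.1%).

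The lists and limits compared here each gave tRNA genes a lower share than all genes together. All of them used the distance to the whole gene, and median lengths were 73 bp for tRNA genes and 1656 bp for all genes. Longer genes have larger windows by this rule, and the part of gene length in these differences was not tested. The other thresholded list of the series placed a summit near 16 tRNA genes (5.52%) and near 21.4% of all genes. Replicate 1's own list gave 8 tRNA genes (2.76%) against 11.9% of all genes, so that the count moved by more than 1.5 times, and replicate 2's list gave 14 (4.83%) against 17.8%. With conservative peaks of signal above the median alone, the count was 8 tRNA genes (2.76%) against 11.9%. Ranked peaks with a −log10 global irreproducible discovery rate of 1 or more, a weaker limit chosen after the values were seen, gave 43 tRNA genes (14.8%) and 36.3% of all genes.

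The distance of 500 bp divided close neighbours. The outermost gene and summit pairs inside it were tRNA:Leu-AAG-1-3 at 492 bp, with a signal of 112.6, and tRNA:Ala-AGC-2-7 at 496 bp, with 84.0. The nearest outside it were tRNA:Phe-GAA-1-6 at 513 bp, with 49.6, and a summit of signal 90.5 at 569 bp from tRNA:Arg-TCT-1-1.

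Nearness to the start of a protein-coding gene went with the presence of a summit. Of 33 tRNA genes within 500 bp of a coding transcription start site (TSS), 6 had a summit (18.2%), and of the other 257, 12 had one (4.67%). By the 5′ end these were 5 of 32 (15.6%) and 10 of 258 (3.88%). Arm positions set the scale for both values, since 10.2% of positions within 500 bp of a coding TSS and 2.42% of the rest lay near a summit. Of the 19 summits near tRNA genes, 7 (36.8%) were within 500 bp of a coding TSS, and of all conservative summits 36.7% were. In 4 of the 19 the coding TSS was closer to the summit than the tRNA gene was. Whether a peak there belongs to the tRNA gene or to its neighbour cannot be told apart.

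Summits showed no peak of density at tRNA gene starts, unlike at protein-coding genes. At coding genes the density was highest in the 200 bp just upstream of the start, at 72.0 conservative summits per 1000 genes, and was 5.95 in the lowest bin. Around tRNA genes it ranged from 3.45 to 27.6 per 1000 genes. The highest value stood for 8 pairs of gene and summit, reached both 800 to 600 bp upstream and 1200 to 1400 bp past the start. A summit near several genes counted once for each. In the bin just upstream of tRNA genes there were 3 such pairs, or 10.3 per 1000 genes. With all ranked peaks the density around tRNA genes stayed between 190 and 262 per 1000 genes. The median distance from a gene's 5′ end to the nearest conservative summit was 10764 bp for tRNA genes and 8795 bp for protein-coding genes. Both quartiles went the other way, at 2253 and 18297 bp for tRNA genes against 2534 and 21503 bp for protein-coding genes.

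**Figure D2:**
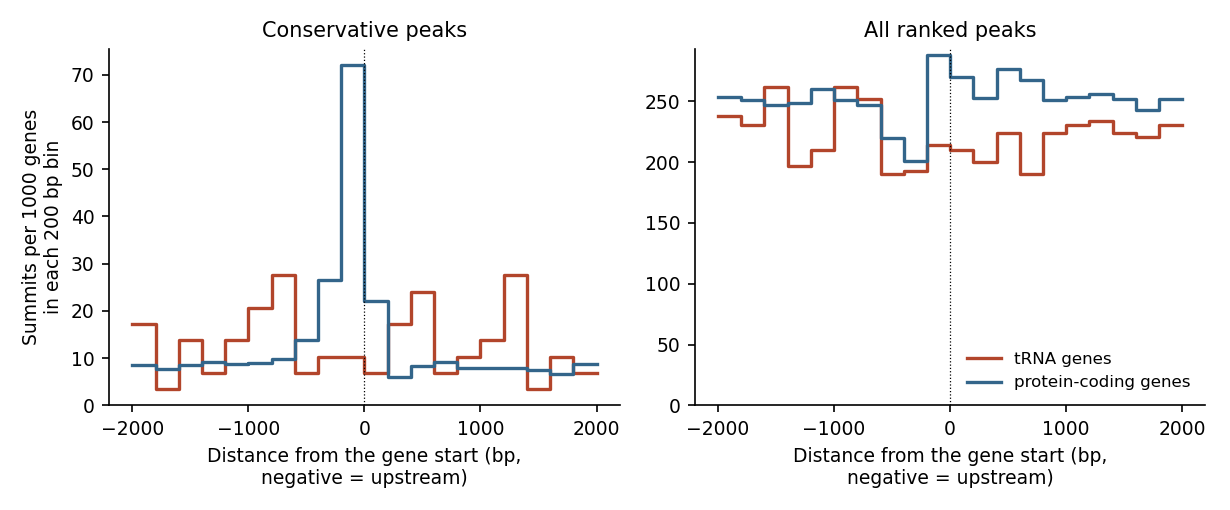
Summits per 1000 genes in bins of 200 bp around the gene start for tRNA genes and protein-coding genes, with conservative peaks on the left and all ranked peaks on the right. The coding profile rises to 72.0 just upstream of the start. The tRNA profile, which rests on 1 to 8 pairs of gene and conservative summit a bin, has no peak there.

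The 19 summits were of modest height. Their signal in the authors' units ran from 7.14 to 520.8 with a median of 78.5, and the median of all conservative peaks was 96.2. Of the 19, 7 lay above that median. There were 7 summits upstream of the nearest tRNA gene and 12 downstream, at a median distance of 230 bp from it. The median position was 239 bp past the gene start, and its sign was not stable, since it was −219 bp for the peaks above the median signal and −57.5 and −146 bp in the lists of replicate 1 and replicate 2.

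The highest summit stood beside tRNA:Tyr-GTA-1-8 (FBgn0012024), a tyrosine tRNA gene with an intron of its own that lies inside an intron of the pigmentation gene p. Its signal was 520.8 in the conservative list, 176.6 in replicate 1 and 335.3 in replicate 2, above 97.2% of conservative peaks. The summit was 219 bp upstream of the tRNA gene and 225 bp from the TSS of CG8036. Both replicates' own thresholded lists held the peak.

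The next heights lay on X, beside a phenylalanine and a glutamine tRNA gene. Near tRNA:Phe-GAA-1-2 (FBgn0052740) the signal was 191.8, with 97.8 in replicate 1 and 81.6 in replicate 2. That summit was 167 bp downstream of the tRNA gene and 66 bp from the TSS of RpL17, which encodes a ribosomal protein. Near tRNA:Gln-TTG-2-1 (FBgn0052493), inside an intron of CG12535, the signal was 172.6, with 81.2 in replicate 1 and 96.8 in replicate 2. The summit stood 219 bp upstream of the gene and 8065 bp from the nearest coding TSS, so it was the strongest one far from any coding start. A second summit on the other side of this gene had a signal of 53.7, with 28.9 and 30.4 in the replicates.

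Among summits above the conservative median, 4 more were beside tRNA genes for tryptophan and glycine, valine and leucine. tRNA:Trp-CCA-2-2 and tRNA:Gly-GCC-1-9 on 2R shared 1 summit of signal 144.1, with 47.7 in replicate 1 and 90.8 in replicate 2, and it was 18 bp from the TSS of CG30122. tRNA:Val-CAC-2-5 had a summit of 118.8 (44.4 and 71.7 in replicates 1 and 2), 429 bp downstream of the gene and 398 bp from the TSS of its host Naam. tRNA:Leu-AAG-1-3 on 2R had 1 summit of 112.6 (63.2 and 52.2) and another of 78.5 (48.6 and 28.8) just past its 3′ end, 1 bp away. tRNA:Leu-CAA-2-2 had a summit of 111.4 (40.1 and 68.8), 464 bp upstream, and the nearest coding TSS, that of caps, was 15047 bp away.

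The remaining summits were below the conservative median. tRNA:His-GTG-1-3 had a summit of 94.8 (28.6 in replicate 1 and 77.2 in replicate 2) 131 bp from the TSS of CG8490, and the neighbours tRNA:Ala-AGC-2-8 and tRNA:Ala-AGC-2-7 shared one of 84.0 (34.5 and 52.2). The values were 73.1 (48.9 in replicate 1 and 29.04 in replicate 2) beside tRNA:Asn-GTT-1-10 and 69.1 (28.9 and 35.8) beside tRNA:Ala-TGC-2-1. At 4 further summits, beside tRNA:Gly-TCC-2-2, tRNA:Lys-TTT-1-1, tRNA:Pro-CGG-2-3 and tRNA:Cys-GCA-1-4, the signals lay between 59.9 and 66.9.

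Some of these summits were separate records of the same replicate peaks. A second summit near tRNA:Ala-TGC-2-1 had a signal of 7.30 but carried the replicate values of the first, and the centres of those replicate peaks stood −173 and −172 bp from its own, where negative means a lower coordinate. The summit near tRNA:Arg-TCT-1-1 had a signal of 7.14, while its replicate peaks had values of 33.8 and 54.3 and centres at −221 and −206 bp, close to the summit of 90.5 that lay 569 bp from the gene. Peaks that share their pair of replicate peaks with another conservative peak numbered 3 of the 19 and 7.73% of all. Without the 159 conservative peaks (3.38%) of signal below 20, 17 tRNA genes had a summit.

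**Figure D3:**
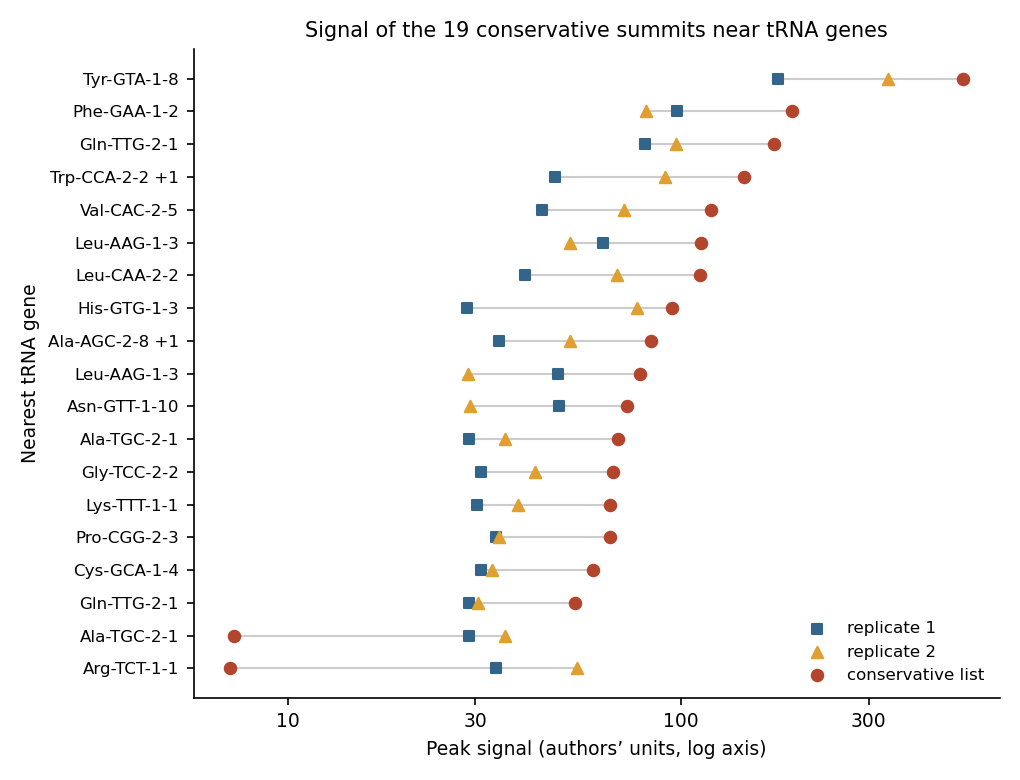
Signal of each of the 19 conservative summits near tRNA genes on a log axis, as given in the conservative list and for the replicate peaks matched to it. Rows carry the name of the nearest tRNA gene, and +1 marks a summit with a second tRNA gene within 500 bp. Tyr-GTA-1-8 stands highest in all 3 values, and in the lowest rows the conservative signal (7.30 and 7.14) is below both replicate values.

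Replicate 2 gave the higher value at most of these summits, as it did across the list. It exceeded replicate 1 at 15 of 19, and at 77.7% of all conservative peaks. The median ratio of replicate 2 to replicate 1 was 1.24 near tRNA genes, ranging from 0.593 at tRNA:Leu-AAG-1-3 to 2.70 at tRNA:His-GTG-1-3, and 1.31 over all peaks. Peaks held by both replicates' own thresholded lists made up 6 of the 19 (31.6%), against 44.9% of all. A further 8 overlapped replicate 2's list alone (42.1%, against 26.3% of all), and 2 overlapped replicate 1's alone. The other 3 overlapped neither list (15.8%, against 24.8% of all). By distance to the whole gene, 6 tRNA genes (2.07%) had a summit in both lists, against 11.0% of all genes, whose median length is greater. The 6 were tRNA:Tyr-GTA-1-8, tRNA:Phe-GAA-1-2, tRNA:Gln-TTG-2-1, tRNA:Leu-CAA-2-2, tRNA:Trp-CCA-2-2 and tRNA:Gly-GCC-1-9. The median −log10 rate was 2.41 near tRNA genes and 2.89 over the list.

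The genes with summits were spread over amino acids and chromosomes. Of 22 amino acid classes, counting initiator methionine (iMet) and selenocysteine (SeC) separately, 14 had at least 1 gene with a summit. Alanine had 3 of 17 genes, glycine 2 of 20 and leucine 2 of 22, and each of the other 11 classes had 1. The remaining classes, aspartate, glutamate, isoleucine, methionine, iMet, SeC, serine and threonine, hold 94 genes, none of them with a summit. They are grouped here because no member had a summit, so their joint count adds nothing further. Glutamate and serine have 19 and 20 of these genes. Only 6.21% of all tRNA genes had a summit, so classes of these sizes can lack one at that share alone. Of 45 anticodons, 17 were represented.

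**Figure D4:**
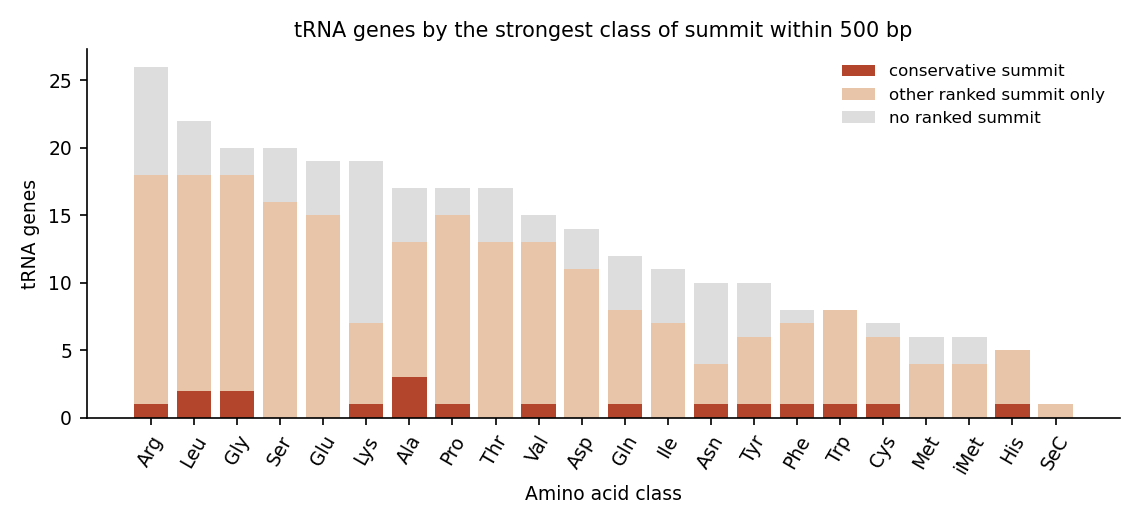
Number of tRNA genes in each amino acid class, split by whether a conservative summit, another ranked summit alone or no ranked summit lay within 500 bp. Genes with a conservative summit number 0 to 3 in each class, and in Lys and Asn 12 of 19 and 6 of 10 genes had no ranked summit.

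By arm the share of tRNA genes with a summit was 1 of 41 on 2L, 7 of 98 on 2R, 3 of 48 on 3L, 5 of 79 on 3R and 2 of 24 on X. Of all genes, 18.2% on 2L, the lowest of these arms, to 20.6% on 3R, the highest, had one. Intergenic tRNA genes had one in 12 of 156 cases (7.69%), those in introns of coding genes in 5 of 127 (3.94%), and those overlapping an annotated exon in 1 of 7, which was tRNA:Pro-CGG-2-3 in the gene not. These counts are small and no test was made between them.

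Summits near clustered tRNA genes were read both by region and by gene, and the orders differed. Genes no more than 5 kb apart were joined into 144 regions, 76 of them with a single gene, and 16 regions had a summit near a member. By region, 2 of 10 regions of 5 or more genes had one, against 8 of 58 regions of 2 to 4 genes (13.8%) and 6 of 76 single genes (7.89%). By gene the order was reversed. Of the 72 genes in the 10 regions of 5 or more genes, 2 had a summit (2.78%), against 7.04% of genes in regions of 2 to 4. Larger regions cover more DNA, and no test was made between these shares. The 2 regions with one ran from tRNA:Cys-GCA-1-1 to tRNA:Cys-GCA-1-4 on 3L, where the last gene had a signal of 59.9, and from tRNA:Asn-GTT-1-10 to tRNA:Arg-ACG-1-10 on 3R, where the first gene had 73.1. Both summits were thus at the end of their cluster.

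The other 8 large regions had no conservative summit within 500 bp of a gene, and they differed in what lay below the threshold. The 11 genes from tRNA:Val-CAC-1-1 to tRNA:Pro-TGG-1-3 on 3R, for alanine, proline, threonine and valine, all had a weaker ranked summit, with a highest signal of 70.6. All 6 genes from tRNA:Leu-CAG-1-2 to tRNA:Leu-CAG-1-7 on 3L and all 7 from tRNA:Arg-TCG-2-1 to tRNA:Arg-TCG-3-4 on X had one too, with highest signals of 53.4 and 38.1. On 2R the highest ranked signal was 28.3 from tRNA:Ile-AAT-1-3 to tRNA:Leu-CAA-1-1 and 74.7 from tRNA:iMet-CAT-1-1 to tRNA:Glu-CTC-2-2. It was 42.7 from tRNA:Glu-CTC-3-4 to tRNA:Glu-CTC-3-9 on 3L and 25.5 from tRNA:Gln-CTG-2-2 to tRNA:Gln-CTG-2-5 on 2L. In the 11 genes from tRNA:Arg-ACG-1-2 to tRNA:Arg-ACG-1-4 on 2R, a mixture of lysine, arginine, asparagine and isoleucine genes, no gene had a ranked summit of any height.

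Identical gene copies differed in whether a summit lay nearby. The 290 genes fall into 95 distinct sequences, of which 43 have 2 or more copies and hold 238 genes. In 11 of the 43 some copies had a conservative summit and others did not, in 32 no copy had one, and in 0 did every copy have one. Only 6.21% of all tRNA genes had a summit, so a sequence with a summit at every copy would be rare at that share alone. Of 13 identical copies of tRNA:Gly-GCC-1, 1 had a summit, as did 1 of 10 copies of tRNA:Asn-GTT-1 and 1 of 8 of tRNA:Phe-GAA-1.

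The valine sequence printed above shows this gene by gene. Its 6 identical copies on 3R had best ranked signals of 21.1, 32.8, 19.7, 32.7, 118.8 and 55.5 from tRNA:Val-CAC-2-1 to tRNA:Val-CAC-2-6. The highest value, at tRNA:Val-CAC-2-5, was that of the summit 429 bp outside the gene and 398 bp from the TSS of Naam. Of the 11 copies of the alanine sequence, tRNA:Ala-AGC-2-7 and tRNA:Ala-AGC-2-8 shared the summit of 84.0. The other 9 ranged from no ranked summit (tRNA:Ala-AGC-2-11) and 5.14 (tRNA:Ala-AGC-2-9) to 70.6 (tRNA:Ala-AGC-2-2). Reads that fall inside identical copies could be placed at any of them, and the authors' rule for placing such reads is not stated in the sources at hand.

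A larger share of genes of unique sequence than of genes with copies had a conservative summit. It rests on 6 genes, and no test was made of this. A conservative summit was near 6 of 52 genes of unique sequence (11.5%), 5 of 103 with 2 to 5 copies (4.85%) and 7 of 135 with 6 or more (5.19%). No ranked summit was near 19.2%, 32.0% and 22.2% of these genes in the same order. The part of read placement in these shares was not tested.

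Below the threshold, weak ranked peaks lay near most tRNA genes. The ranked list holds 147187 peaks on the arms, and 217 of 290 tRNA genes (74.8%) had a ranked summit within 500 bp, against 89.4% of all genes. Measured from the 5′ end the shares were 72.8% and 78.5%. The best ranked signal near these 217 genes had a median of 29.7, and measured from the 5′ end the medians were 29.3 for tRNA genes, 32.2 for all genes and 33.3 for protein-coding genes. A best signal of 100 or more near the 5′ end was found for 5 tRNA genes (1.72%) and for 6.58% of all genes. The 73 tRNA genes without a ranked summit included 47 in regions where no member had one. Regions of a single gene are counted among these, and for them this holds by definition.

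The tRNA genes without a conservative summit reached best ranked signals of 3.94 to 81.8, with a median of 28.9. The highest was tRNA:Leu-TAA-2-1 on 3R, at 81.8, where replicate 1 had 19.5 and replicate 2 had 72.9. tRNA:Glu-TTC-1-5 on 2R followed with 74.7 (39.0 and 45.2). Its −log10 rate of 2.75 was above the lowest of the conservative list, and it is 1 of 109 such ranked peaks that the conservative list does not hold. tRNA:Ala-AGC-2-2 and tRNA:Pro-TGG-1-2 shared a peak of 70.6, and tRNA:Leu-CAG-1-1 had one of 62.8.

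Initiator tRNA, which starts every protein chain, had no conservative summit at any of its 6 genes. Only 6.21% of all tRNA genes had such a summit, so its absence from 6 genes says little about initiator tRNA. Best ranked signals were 29.7 for tRNA:iMet-CAT-1-3, 28.9 for tRNA:iMet-CAT-2-1 and 26.5 for the neighbours tRNA:iMet-CAT-1-1 and tRNA:iMet-CAT-1-2, and no ranked summit lay near tRNA:iMet-CAT-1-4 or tRNA:iMet-CAT-1-5. The single selenocysteine gene, tRNA:SeC-TCA-1-1, had a best ranked signal of 35.8, with 9.82 in replicate 1 and 21.5 in replicate 2. All these values lie close to the median of tRNA genes.

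Other RNA polymerase III transcripts and the genes that make and mature tRNA were read from lists chosen for this purpose. Of 9 other genes for polymerase III transcripts, 2 had a summit within 500 bp of a TSS of their own (22.2%). Measured from the 5′ end, the nearest like rule, 11.3% of all annotated genes had one. The 2 were snRNA:7SKa, with 109.0 (54.2 in replicate 1 and 56.2 in replicate 2), and RNaseMRP:RNA, with 55.2 (28.9 and 33.6). The first is the RNA that holds the elongation factor P-TEFb inactive, and the second is the RNA of an RNA-cutting enzyme. The list of 9 held no rRNA gene, and 0 of the 99 annotated rRNA genes had a summit by the 5′ end. The 22.2% is thus the share of a small chosen list and not that of all polymerase III transcripts.

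Genes for the tRNA machinery are protein-coding, and 15.1% of all protein-coding genes had a conservative summit within 500 bp of a TSS of their own. In the list for RNA polymerase III and its factors, 4 of 20 matched genes had one. They were the TFIIIB subunit genes Bdp1, with 273.4 (115.8 in replicate 1 and 168.3 in replicate 2), and Brf, with 258.8 (105.4 and 138.5), and the polymerase subunit genes Polr3E, with 107.7 (43.3 and 43.2), and Polr1D, with 78.3 (31.7 and 51.6). The TFIIIC symbols Gtf3c1, Gtf3c2, Gtf3c3, Gtf3c5 and Gtf3c6, and TfIIIA, did not match the annotation. Genes under those symbols were therefore not examined. In the list for tRNA processing and modification, 5 of 21 matched genes (23.8%) had one. The highest were Tcs5, named for a threonylcarbamoyl modification of tRNA, with 1644 (654.9 and 1003), and RluA-1, of a pseudouridine synthase family, with 1052 (387.8 and 644.2). Trmt6, for a subunit of a tRNA methyltransferase, had 469.0 (218.1 and 270.9), and Rpp20, for a subunit of RNase P, had 113.3 (55.9 and 55.7). The summits of Tcs5 and RluA-1 were above every one near a tRNA gene, and those of Trmt6, Bdp1 and Brf were above all of them but the summit beside tRNA:Tyr-GTA-1-8. These genes were named as the highest of their lists. For scale, summits in the 200 bp upstream of all protein-coding starts had a median signal of 120.1, and the highest conservative peak had 2240.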

How the data were processed

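The authors deposited ranked and thresholded peak lists for each replicate and for the series, on dm6 per the labels. The deposited signal of a peak is the authors' value and has no stated normalization. It was used to rank and describe peaks within a list. In the ranked lists the authors also deposited −log10 values, read here as the global irreproducible discovery rate, and conservative peaks had 2 or more. Aligner, peak caller, depth and the placement of repeated reads were not given in the sources used here. Controls were not analysed here.

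Replicate values come from the ranked list's replicate columns, which were assigned by exact matches to 118355 peaks of replicate 1 and 114571 of replicate 2. Genes came from Ensembl release 115 (BDGP6.54) on 6 arms, and sequences from RefSeq. Summits are 1-based, and a gene's place (exon, intron, intergenic) is its overlap with coding genes. Shares have exact (Clopper-Pearson) 95% intervals, and no test was made, since there is 1 group. Counting was tested on simulated summits. Of the listed gene symbols, 20 of 26 and 21 of 27 matched in the polymerase III and processing lists. The members, gene lists, motifs and alternatives were chosen with earlier results of these data known.

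The genes named are those of the 12 highest summits near tRNA genes, the first and last of regions of 5 or more genes, iMet and SeC genes, the 5 highest without a conservative summit, the pairs nearest to 500 bp, and the 4 highest of each list. Other names were chosen after their values were seen. Alternatives were the other list, each replicate's list, peaks above the median, other distances, region gaps and overlap rules. The software was Python 3.11.15 with pandas 2.3.3, numpy 2.4.6, matplotlib 3.10.9 and scipy 1.17.1.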

Additional observations from a re-analysis of the deposited data

How the results depend on the processing

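No paired analysis was possible because both samples form a single group. The number of tRNA genes with a summit was 18. It was 8 for peaks above the median signal, 10 within 250 bp, 35 within 1000 bp and 43 for the weaker ranked peaks, and 8 to 14 in single replicates. The percentage of all genes was 21.4 with the other list, 11.9 above the median, 17 within 250 bp, 22.5 within 1000 bp, 20.4 by overlap of the whole peak and 36.3 for the weaker peaks, and 11.9 to 17.8 in single replicates. Regions with a summit numbered 7 above the median, 10 within 250 bp and 7 to 13 in single replicates. Distinct summits numbered 7 above the median, 11 within 250 bp, 29 within 1000 bp and 8 to 13 in single replicates. Genes away from coding starts numbered 4, 6 and 27 in the first 3 of these settings, and 4 to 8 in single replicates. Genes with a summit at the 5′ end numbered 5, 8 and 34, and 7 to 13 in single replicates. The median signal was 144.1 above the median and 56.05 to 71.72 in single replicates, whose scale differs from that of the pooled list. The median position was −219 bp above the median and −146 to −57.5 bp in single replicates. The median best ranked signal was 28.28 within 250 bp and 37.91 within 1000 bp. The causes were not tested, apart from the distances and thresholds, which admit more or fewer peaks by construction. The weaker ranked peaks and the removal of peaks of signal below 20 were added after the data were seen. Recomputed counts were taken as moved when they differed by more than 1.5 times, and percentages and medians when they fell outside the 95% interval of the main value, which is exact binomial for a percentage and from ranked values for a median. By these limits 33 values moved and 34 did not, some of the latter being single-replicate values given above. The median position moved for peaks above the median signal. In both single replicates and within 1000 bp, where it was −11 bp, its sign changed too. It is not among the moved values there, because its interval is wide. Depth is unknown, so a gene without a peak may lie below detection.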
